A study of Mus musculus with 3 samples.

Results

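The nucleosome position lists of mouse fetal liver erythroblasts on culture day 1 and culture day 2 were compared with each other. They are 2 of the 3 libraries of the study, chosen by their culture day, and the comparison used autosomes 1 to 19. The day 1 list held 2967550 autosome positions of 2999502 in all, and the day 2 list held 4382151 of 4474045. The cells of both libraries were Ter119-negative erythroblasts obtained from 6 fetuses and grown in IMDM with fetal bovine serum, erythropoietin, BSA and insulin. Ter119 is a surface protein of maturing red cells, so the culture started from cells that had not yet gained it. The labels name no strain, fetal age or genotype, and they do not say whether both days came from the same culture. Chromatin was digested with micrococcal nuclease, and DNA of single nucleosomes was sequenced. Each day has 1 library, so no test between the days was possible, and every difference below describes these libraries. The labelled cell type could not be checked against marker genes, because nucleosome positions measure no expression.

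A nucleosome is DNA wound around a core of histone proteins, and micrococcal nuclease cuts the linker DNA between nucleosomes, so that the protected fragments show where nucleosomes lie. At active CpG-rich promoters a stretch before the start is poor in nucleosomes, and the first nucleosome inside the gene, called +1, begins an ordered row. In late red cell formation the erythroblast stops dividing, condenses its chromatin and expels its nucleus. Whether the cells of day 1 or day 2 had reached these stages was not measured here.

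Each listed position has a centre, a summit value (the height of the authors' smoothed and scaled coverage at the centre) and a fuzziness score (how widely reads spread around it, higher for less sharply placed nucleosomes, with no unit given). Summit values lay on whole steps of 0.324 on day 1 and 0.626 on day 2 for 97.4% and 98.7% of positions, within 0.01 of a step. If 1 step is 1 unit of coverage, the day 1 library was 1.93 times as deep as the day 2 library, and a summit value of 5 stood for 16 units on day 1 and 8 on day 2. On this reading the deeper day 1 library had the shorter list. To limit this difference, equal numbers of positions were used in most comparisons, namely the 2000000 autosome positions with the highest summit values on each day, called the equal-number sets below. Their lowest summit value was 5.83 on day 1 and 6.26 on day 2, and their median was 7.77 and 7.51. Depth and culture day cannot be told apart in what follows.

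The bases just before the starts of 6 erythroid or chromatin genes show what the lists look like at single promoters. Each line gives the 250 bases before the start, from RefSeq on GRCm38.p6 (the coordinates of mm10), written along the strand of the gene. Capitals mark the bases that lay within the 140 bp footprint of a listed position of that day, from the whole lists. Klf1, Tal1 and Kit are shown whatever their values. Alad, Hdac2 and Epor were chosen after their values were seen, as examples of a partly kept, a lost and a gained cover.

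Klf1, a master regulator of red cell genes, lies on the plus strand and the bases are chr8:84901732-84901981.
Klf1, day 1: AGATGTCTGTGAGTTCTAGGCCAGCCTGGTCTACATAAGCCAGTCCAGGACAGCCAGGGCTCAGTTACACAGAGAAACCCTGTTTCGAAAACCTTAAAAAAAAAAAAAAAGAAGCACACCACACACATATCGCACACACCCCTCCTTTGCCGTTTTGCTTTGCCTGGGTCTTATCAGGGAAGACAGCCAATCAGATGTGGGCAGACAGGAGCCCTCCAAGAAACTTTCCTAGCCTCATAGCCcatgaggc
Klf1, day 2: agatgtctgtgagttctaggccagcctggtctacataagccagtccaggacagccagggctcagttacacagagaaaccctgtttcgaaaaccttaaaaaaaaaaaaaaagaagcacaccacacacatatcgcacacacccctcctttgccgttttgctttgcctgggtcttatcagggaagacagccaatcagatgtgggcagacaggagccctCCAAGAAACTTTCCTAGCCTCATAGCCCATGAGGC
On day 1, 242 of these bases were covered, by positions centred 191 bp and 79 bp before the start with summit values of 9.71 and 7.44. On day 2 the last 35 bases were covered, by a position centred 34 bp after the start with a summit value of 10.0.

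Tal1, a partner of GATA factors in blood cell formation, lies on the plus strand and the bases are chr4:115056176-115056425.
Tal1, day 1: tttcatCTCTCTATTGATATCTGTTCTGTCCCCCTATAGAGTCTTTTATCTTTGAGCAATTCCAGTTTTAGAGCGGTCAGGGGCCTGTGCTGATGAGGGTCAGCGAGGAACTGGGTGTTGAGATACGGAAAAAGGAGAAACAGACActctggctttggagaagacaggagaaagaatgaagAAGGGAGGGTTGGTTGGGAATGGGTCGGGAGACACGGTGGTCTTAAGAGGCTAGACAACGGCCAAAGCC
Tal1, day 2: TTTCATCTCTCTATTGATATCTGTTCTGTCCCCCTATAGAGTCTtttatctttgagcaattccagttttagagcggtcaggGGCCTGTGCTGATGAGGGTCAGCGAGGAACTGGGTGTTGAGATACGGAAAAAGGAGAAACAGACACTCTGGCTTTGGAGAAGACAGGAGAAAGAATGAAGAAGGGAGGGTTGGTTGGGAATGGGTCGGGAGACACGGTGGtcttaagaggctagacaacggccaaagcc
Cover was 209 bases on day 1 and 184 on day 2, and 143 were covered on both days. The sequence has 1 copy of AGATAA, the core of a GATA site, on the reverse strand, 205 bp before the start, which was wholly covered on day 1 and not on day 2. The day 1 position over it, centred 175 bp before the start, had a summit value of 5.50 and was not in the equal-number set. AGATAA occurred on either strand in 9.02% of all 16457 promoter stretches of this length.

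Kit, the receptor of stem cell factor in progenitor cells, lies on the plus strand and the bases are chr5:75574737-75574986.
Kit, day 1: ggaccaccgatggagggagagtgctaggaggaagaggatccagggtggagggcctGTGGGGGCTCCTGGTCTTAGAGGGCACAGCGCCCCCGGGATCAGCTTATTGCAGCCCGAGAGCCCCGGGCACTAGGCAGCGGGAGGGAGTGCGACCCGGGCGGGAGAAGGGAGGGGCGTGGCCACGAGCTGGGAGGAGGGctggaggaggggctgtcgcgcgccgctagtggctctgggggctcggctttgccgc
Kit, day 2: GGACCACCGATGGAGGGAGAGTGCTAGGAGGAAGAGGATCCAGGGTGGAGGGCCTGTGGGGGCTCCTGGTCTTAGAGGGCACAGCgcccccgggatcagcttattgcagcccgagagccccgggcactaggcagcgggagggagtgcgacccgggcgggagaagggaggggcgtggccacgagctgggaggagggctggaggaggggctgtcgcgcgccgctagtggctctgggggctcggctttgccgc
Cover was 140 bases on day 1, from a position centred 126 bp before the start, and 85 bases on day 2, from a position centred 236 bp before it. Their summit values were 8.42 and 6.26, and the day 2 position was not in the equal-number set. The last 55 bases before the start were covered on neither day.

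Alad, an enzyme of heme synthesis, lies on the minus strand and the bases are chr4:62520064-62520313.
Alad, day 1: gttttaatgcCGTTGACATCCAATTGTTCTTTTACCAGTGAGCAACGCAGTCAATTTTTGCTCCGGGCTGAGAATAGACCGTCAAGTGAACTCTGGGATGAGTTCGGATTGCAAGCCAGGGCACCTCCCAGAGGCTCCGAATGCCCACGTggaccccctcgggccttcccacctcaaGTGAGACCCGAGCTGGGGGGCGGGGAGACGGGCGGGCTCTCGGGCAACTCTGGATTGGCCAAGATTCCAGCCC
Alad, day 2: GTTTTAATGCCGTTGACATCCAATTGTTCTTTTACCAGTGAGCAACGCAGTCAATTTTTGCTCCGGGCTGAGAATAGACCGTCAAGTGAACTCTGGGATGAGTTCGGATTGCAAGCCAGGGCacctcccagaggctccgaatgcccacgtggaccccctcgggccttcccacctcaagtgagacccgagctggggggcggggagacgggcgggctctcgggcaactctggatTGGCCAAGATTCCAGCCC
The far part of the stretch was covered on both days, with centres 170 bp before the start on day 1 and 198 bp before it on day 2. The position centred 3 bp before the start on day 1 had its nearest counterpart on day 2 at 52 bp after it. The sequence CACGTG, an E-box, lay 105 bp before the start, partly covered on day 1 and uncovered on day 2, and it occurred in 6.71% of all promoter stretches.

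Hdac2, a histone deacetylase, lies on the plus strand and the bases are chr10:36974294-36974543.
Hdac2, day 1: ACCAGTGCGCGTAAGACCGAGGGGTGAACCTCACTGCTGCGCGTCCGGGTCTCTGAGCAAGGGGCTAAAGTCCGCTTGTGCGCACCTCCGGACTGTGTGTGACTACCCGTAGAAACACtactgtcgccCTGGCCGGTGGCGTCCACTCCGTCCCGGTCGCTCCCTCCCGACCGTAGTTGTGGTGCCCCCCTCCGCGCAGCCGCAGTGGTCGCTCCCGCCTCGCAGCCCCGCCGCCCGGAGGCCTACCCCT
Hdac2, day 2: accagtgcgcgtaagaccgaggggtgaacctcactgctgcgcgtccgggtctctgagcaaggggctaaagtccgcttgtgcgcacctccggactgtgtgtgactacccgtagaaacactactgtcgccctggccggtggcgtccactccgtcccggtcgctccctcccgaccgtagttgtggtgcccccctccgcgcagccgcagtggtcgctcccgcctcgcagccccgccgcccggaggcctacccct
It had 3 positions over or beside this stretch on day 1, centred 203 and 53 bp before and 117 bp after the start with summit values from 11.3 to 14.6, and none on day 2.

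Epor, the erythropoietin receptor, lies on the minus strand and the bases are chr9:21963577-21963826.
Epor, day 1: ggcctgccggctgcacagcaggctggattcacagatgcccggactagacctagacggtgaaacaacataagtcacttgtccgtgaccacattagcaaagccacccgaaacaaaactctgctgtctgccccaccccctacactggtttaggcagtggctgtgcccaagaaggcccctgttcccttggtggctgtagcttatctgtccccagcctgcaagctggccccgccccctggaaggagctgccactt
Epor, day 2: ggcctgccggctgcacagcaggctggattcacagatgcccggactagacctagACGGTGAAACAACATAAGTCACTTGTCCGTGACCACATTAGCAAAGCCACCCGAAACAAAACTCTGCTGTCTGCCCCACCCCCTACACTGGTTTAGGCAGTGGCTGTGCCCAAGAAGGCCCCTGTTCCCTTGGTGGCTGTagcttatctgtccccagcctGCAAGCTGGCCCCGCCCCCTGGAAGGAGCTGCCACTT
It had no position here on day 1. On day 2 it had 1 centred 33 bp after the start, with a summit value of 11.3, and 1 centred 127 bp before it, with a summit value of 6.26. A copy of AGATAA on the reverse strand, 54 bp before the start, lay between these footprints. Motifs were also searched as CCACACCC (a KLF-type site, in 3.35% of all stretches) and TATAAA (12.5%), on both strands, and neither letter string was found in the 6 stretches. At the adult globin starts, from 250 bp before to 50 bp after, Hba-a1, Hba-a2 and Hbb-bt had no covered base on day 1, and 60, 190 and 82 of 300 on day 2. Hbb-bs had 53 covered bases on day 1 and 95 on day 2. These numbers come from the whole lists, of which the day 2 list is the longer. Among the day 2 positions over these starts, only that of Hba-a2 centred 161 bp before the start was in the equal-number set. Its summit value was 6.88, and the others had at most 5.63. The day 1 position of Hbb-bs, with a summit value of 7.77, was in the set. A gain of cover at these starts was not tested. The stretches of Hba-a1 and Hba-a2 are near-identical, so that the assignment of reads between these copies is uncertain. Those of Hbb-bt and Hbb-bs differ more.

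The main difference between the days was where in the genome the positions lay. The autosomes were divided into bins of 100 kb and grouped by the number of protein-coding genes in the surrounding 1 Mb. In the gene-poorest bins, with 0 to 1 genes, the share of all summed summit values was 3.09% on day 1 and 8.27% on day 2, a ratio of 2.68. In bins with 2 to 4 genes the share was 8.72% on day 1 and 13.9% on day 2, a ratio of 1.60. In the gene-richest bins, with 22 or more genes, it was 25.9% on day 1 and 18.8% on day 2, a ratio of 0.728. The classes between them lay in order, with ratios of 1.11 for 5 to 8 genes, 0.935 for 9 to 13 and 0.815 for 14 to 21. All 19 autosomes had a ratio above 1 in the poorest bins, from 1.68 to 3.26, and none had one above 1 in the richest bins, where the ratio ran from 0.612 to 0.849.

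**Figure D1:**
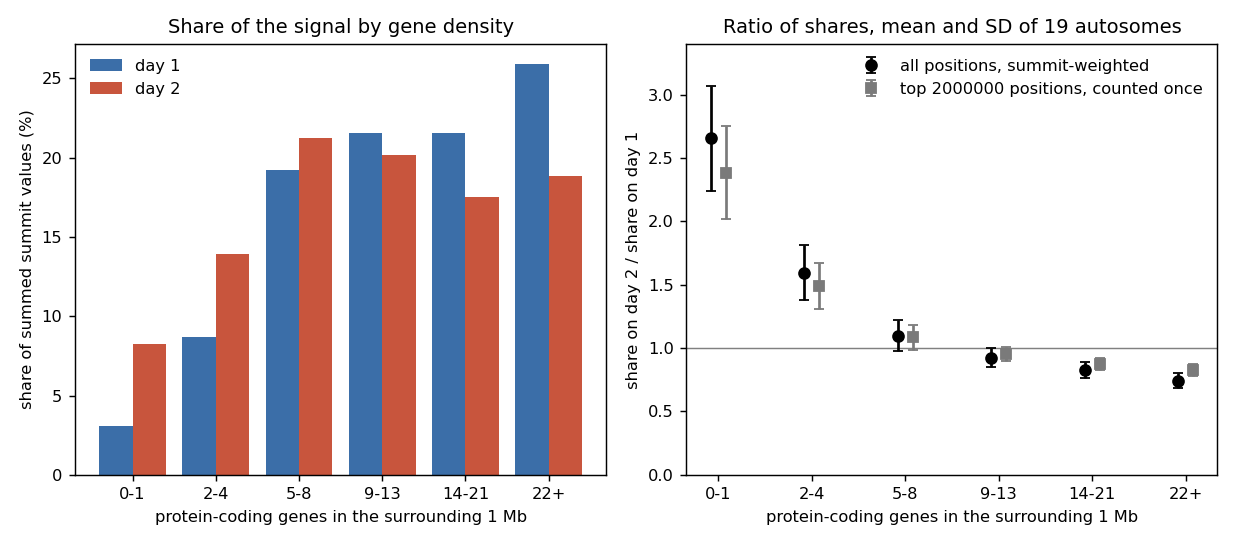
Shares of the summed summit values (%) on day 1 and day 2 in 6 classes of 100 kb bins by gene number (left), and the ratio of the day 2 share to the day 1 share (right; points are means and bars are SDs over 19 autosomes). The mean ratio falls from 2.65 in the gene-poorest class to 0.742 in the richest for all positions, and from 2.38 to 0.829 for the equal-number sets.

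The order was also present with equal numbers of positions, where the poorest bins held 46193 positions on day 1 and 110502 on day 2, and the richest 541761 and 444824. The ratios were then 2.39 and 0.821. At summit values of at least 10, or 16 or more units of coverage on day 2, the poorest bins held 2436 and 6996 positions, a ratio of 2.85 after scaling by the totals. In that set the class of 9 to 13 genes had a ratio of 1.12, on the other side of 1 from its main value. In the whole lists the mean summit value in the poorest bins was 6.14 on day 1 and 5.83 on day 2, beside 7.40 and 6.69 over all positions.

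Positions on day 2 were more evenly spread. With equal numbers the median 100 kb bin held 25 positions on day 1 and 44 on day 2, with the same mean of 83.2. Of 24048 bins, 202 were empty on day 1 and 22 on day 2. The coefficient of variation over bins was 1.34 on day 1 and 1.01 on day 2. The 10% of bins with the most positions held 42.2% of them on day 1 and 33.5% on day 2. The ranking of bins was close on both days, with a Spearman rho of 0.955 over bins, which are not independent and share their libraries.

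The same gradient appeared with distance from genes. Of equal-number positions, 59.5% of day 1 positions and 55.6% of day 2 positions lay within a protein-coding gene, a ratio of 0.934. The ratio was 0.903 within 10 kb outside a gene and 1.01 between 10 and 50 kb. It was 1.32 between 50 and 200 kb and 2.01 between 200 and 500 kb. Beyond 500 kb, where 8.38% of the binned genome lies, there were 13048 positions on day 1 and 37992 on day 2, a ratio of 2.91.

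Whole chromosomes differed in the same sense. Chromosome 11, with 13.5 genes per Mb, had the lowest ratio of position shares, 0.820, from 240214 positions on day 1 and 290971 on day 2. It was followed by chromosome 19 at 0.861 and chromosome 17 at 0.898. Chromosome 3, with 6.26 genes per Mb, had the highest ratio, 1.20, from 139065 and 246257 positions, followed by chromosome 14 at 1.16 and chromosome 18 at 1.14. Over the 19 autosomes the ratio had a Spearman rho of -0.93 with genes per Mb, given as a description of 1 pair of libraries. Chromosome 7, which has many receptor genes and the highest gene density at 14.2 per Mb, had a ratio of 0.944 in the equal-number sets.

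**Figure D2:**
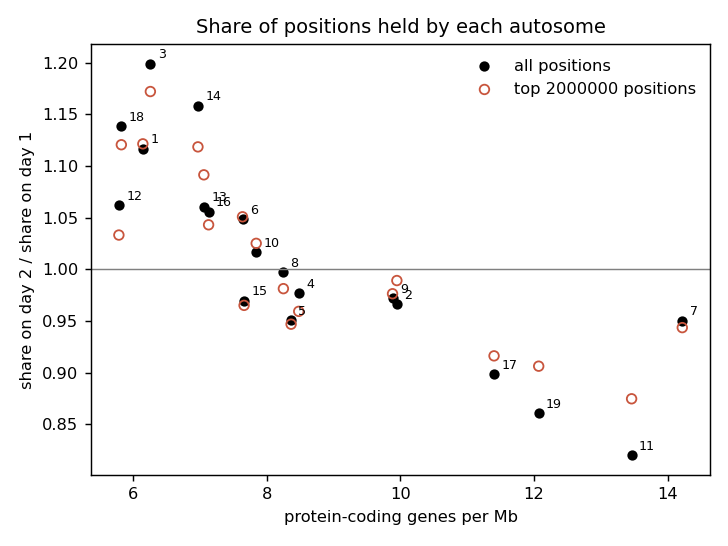
Ratio of the day 2 share to the day 1 share of positions for each autosome (numbered points) against its protein-coding genes per Mb. Filled points use all positions and open points the top 2000000, and both run downward from chromosome 3 (1.20 and 1.17) to chromosome 11 (0.820 and 0.875).

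Base composition moved with this difference at gene starts. Promoters were divided into 10 groups of equal number by the GC share of the 300 bases around the start. In the group with the lowest GC, up to 40%, there were 0.344 equal-number positions per start within 500 bp on day 1 and 0.443 on day 2, a ratio of 1.29. In the group with the highest GC, 71% and above, there were 4.53 and 3.42, a ratio of 0.757. From 500 to 5000 bp upstream the ratios of these groups were 1.39 and 0.848. There the ratio did not keep falling with GC. It was lowest, at 0.831, in the group from 53.7% to 56.7% GC. GC share and gene density go together along the genome, and their separate parts in the difference between days were not tested.

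Single positions were kept between the days only a little more often than a shifted comparison gave. With equal numbers 267167 positions, 13.4%, had a centre of the other day within 20 bp. After shifts of 1000 bp the share was 9.20%, so the ratio was 1.45, with a range of 1.39 to 1.57 over the autosomes. The excess was largest for centres less than 10 bp apart, at 1.62 times the shifted number, and declined to 1.03 at 70 to 79 bp. Centres 80 to 89 bp apart were fewer than after the shift, at 0.908, and those 110 to 149 bp apart were again more frequent, at 1.10 to 1.12. Most positions had no counterpart on the other day at this distance.

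Positions with high summits matched more often. Among the 10% of day 1 positions with the highest summits, 19.9% had a day 2 centre within 20 bp and 13.5% after the shift. In the lowest 10% the shares were 8.96% and 6.74%. Counted from day 2, the highest 10% had 22.5% and the lowest 10% had 7.76%. By region, the ratio to the shifted share was 2.41 in the gene-poorest bins and 1.34 in the richest. The share itself ran the other way for day 1 positions, from 6.49% in the poorest bins to 16.5% in the richest, where positions lie denser and meet more often after a shift too.

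Listed positions had lower fuzziness scores on day 2. Over the equal-number sets the median score was 54.7 on day 1 and 51.2 on day 2, with an SD over positions of 4.01 and 5.31. Scores under 45, the sharpest placements, made up 2.06% of day 1 positions and 14.1% of day 2 positions. At the 267167 shared positions the median was 55.1 on day 1 and 52.3 on day 2. The median difference within a position was -2.78, the day 2 score was lower at 69.8% of them, and the medians of the autosomes ran from -2.96 to -2.57. The score is estimated from reads, and the part of a difference in depth between the days in it was not tested.

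The distances between centres differed between the days at close range. In the equal-number sets the distances between centres had maxima that repeated every 196.3 bp on day 1 and every 195.3 bp on day 2. Fitted within single autosomes the slopes were 177.9 ± 23.8 bp on day 1 and 159.0 ± 21.9 bp on day 2 (mean and SD over 19 autosomes), below the pooled values and further apart. The pooled difference was smaller than this spread, and the spacing is known only roughly. With distances smoothed over 30 bp on each side, the day 1 maximum lay at 139 bp, at 1.60 times the level at long range. At 240 bp the day 1 height was 1.26. The day 2 maximum lay at 246 bp, at 1.59 times the level at long range, and at 140 bp the height was 1.33. Smoothed over 15 bp on each side, the maxima lay at 129 bp on day 1 and 243 bp on day 2. The day 1 value thus depends on the smoothing.

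Among gaps under 300 bp between neighbours, those of 100 to 159 bp made up 39.3% on day 1 and 29.0% on day 2. Footprints of 140 bp overlap where centres are closer than that, and gaps under 140 bp made up 25.6% on day 1 and 18.3% on day 2. Gaps of 200 to 259 bp made up 26.4% on day 1 and 33.2% on day 2. The same order of days was present in all 6 gene density classes. In the poorest bins the short gaps made up 35.4% on day 1 and 21.3% on day 2, and in the richest 40.9% and 31.7%. It was also present in all 4 groups of gaps by summit rank, with 41.4% and 26.3% in the group of highest summits. Centres within a list lay at least 100 bp apart, and centres lay on a grid of 5 bp for 91.2% of day 1 and 80.4% of day 2 positions, so distances are known only to that step.

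**Figure D3:**
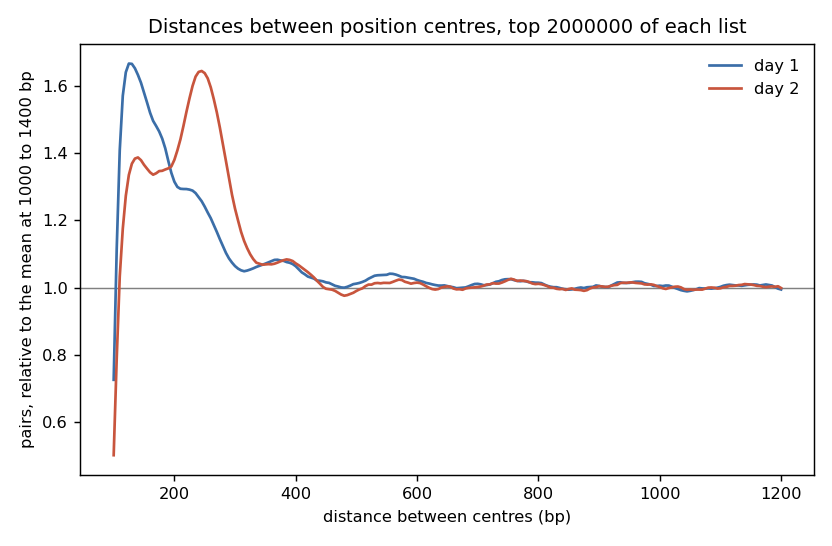
Number of pairs of centres at each distance (bp), relative to the mean at long range, in the top 2000000 positions of day 1 and day 2. With less smoothing than in the text, day 1 is highest near 125 bp and day 2 near 245 bp. Beyond about 400 bp the curves nearly coincide.

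At CpG-rich gene starts the first maximum inside the gene lay closer to the start on day 2, and the first 3 maxima were lower. Starts on 18 autosomes were classed by the CpG content of the 300 bases around them, and 8184 were CpG-rich (observed over expected CpG of at least 0.6). In the equal-number sets the +1 maximum of this class lay 116 bp after the start on day 1 and 94 bp on day 2. Its height over the outer flanks was 2.53 on day 1 and 2.10 on day 2. Within autosomes the day 2 maximum was nearer to the start in 16 of 18, by a mean of -21.3 ± 14.9 bp (SD over autosomes), and lower in 18 of 18. The second maximum lay at 310 and 306 bp with heights of 2.49 and 2.14. The third lay at 477 and 488 bp with heights of 1.80 and 1.73, so these maxima did not follow the shift of the first. With all positions the second lay at 310 bp on day 1 and 324 bp on day 2.

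The gap before CpG-rich starts was present on both days. Density over the 150 bp before the start was 0.723 of the flanks on day 1 and 0.664 on day 2, and lower on day 2 in 13 of 18 autosomes. The trough between the first and the second maximum was 1.11 on day 1 and 0.895 on day 2. There were 6.46 positions per CpG-rich start within 1000 bp on day 1 and 5.50 on day 2. CpG-poor starts (ratio below 0.35, 5727 starts) had a weaker and broader rise, with a maximum at 69 bp and a height of 1.46 on day 1, and at 67 bp and 1.51 on day 2. The place of this maximum is poorly known, with an SD over autosomes of 64.6 bp on day 1 and 56.3 bp on day 2. With 1 autosome left out it lay between 69 and 204 bp on day 1. CpG-poor starts had no gap before the start, with densities of 1.01 and 1.02.

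**Figure D4:**
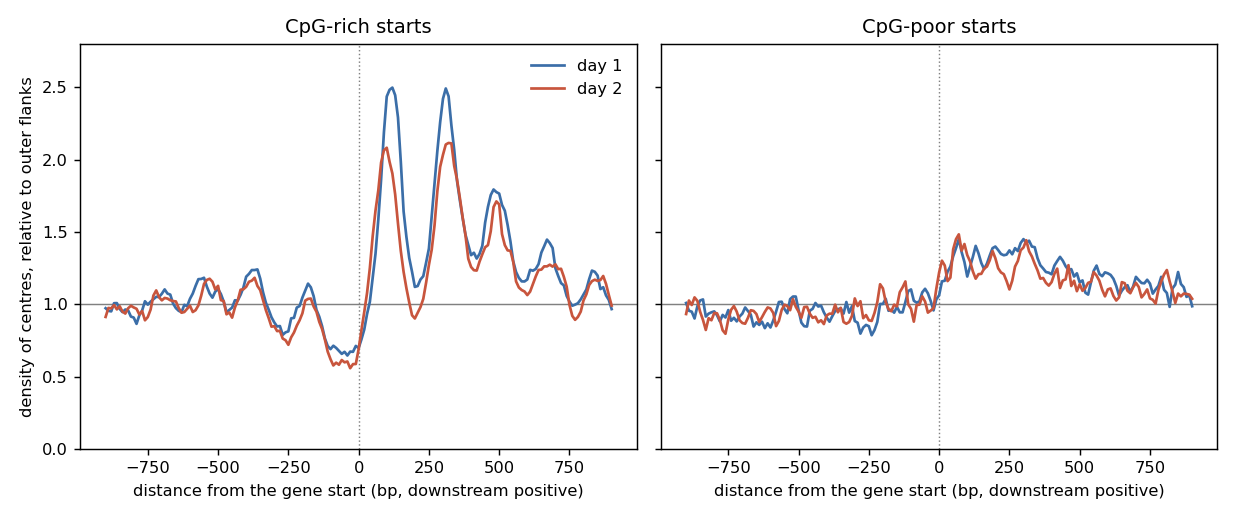
Density of position centres along the gene from 900 bp before to 900 bp after the start, relative to the outer flanks, at CpG-rich (left) and CpG-poor (right) starts on day 1 and day 2. At CpG-rich starts the first maximum is at 116 bp and 2.53 on day 1 and at 94 bp and 2.10 on day 2.

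Of 16457 promoters, 4567 (27.8%) held an equal-number centre in the 300 bases around the start on both days. A further 2470 held one on day 1 alone, 2255 on day 2 alone, and 7165 on neither day. Promoters with a centre on both days had a median GC share of 63%, those on day 1 alone 59%, those on day 2 alone 57%, and those on neither 50.7%. CpG-rich promoters held a centre at 50.5% of starts on day 1 and 48.2% on day 2, and CpG-poor ones at 30.3% and 30.6%. The letter string AGATAA was in 5.47% of promoters with a centre on both days, 7.65% on day 1 alone, 9.31% on day 2 alone and 13.6% on neither, an order that runs with falling GC. TATAAA ran the same way, at 6.77%, 8.83% and 11.9% in the first 3 of these groups and highest in the last.

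Over whole gene bodies most genes held slightly fewer positions on day 2, and long genes in gene-poor regions held more. In the equal-number sets 15157 protein-coding genes had at least 20 positions over both days together. A gene was called at a change of 2 times, a size rule and not a test. By this rule 882 genes (5.82%) had more positions on day 2 and 190 (1.25%) had fewer. Which genes were called depended on the positions used. Of 1072 called higher and 434 called lower with the top 1000000 positions, 374 and 58 were among these, and of 1151 called higher with all positions 582 were. The median log2 ratio of day 2 to day 1 over all of them, with 0.5 added to each number, was -0.19, with 4792 above 0 and 9958 below.

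Length and surroundings moved with the ratio. The median log2 ratio was -0.30 for genes under 10 kb, -0.25 from 10 to 50 kb, 0.52 from 200 to 500 kb and 1.29 for the 216 genes of 500 kb or more. In the last class 140 genes were called higher and 0 lower. The ratio in the 500 kb on each side outside a gene had a Spearman rho of 0.57 with the ratio of the gene itself, across genes, which are not independent. Genes called higher had a median length of 128 kb and 5 genes in their surrounding 1 Mb, and those called lower had 8.04 kb and 21.5 genes. Set against their own surroundings, 313 genes were higher by 2 times, and 295 of these were among the 882. On the same measure 199 genes were lower, and 59 of these were among the 190.

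The genes with the largest increases had few positions on day 1. Mdh1b, a malate dehydrogenase relative, had 1 position on day 1 and 25 on day 2, a ratio of 25 with an exact 95% interval of 4.09 to 1026. Lmcd1, a LIM domain protein, had 1 and 21. Gap43, a growth cone protein of neurons, had 3 and 38, and Ano3, of the anoctamin membrane proteins, had 4 and 47. Rspo3, a secreted enhancer of Wnt signalling, had 3 and 30, and Gabra2, a GABA receptor subunit, had 2 and 18. The others were Lrriq3 (2 and 22), Serpinb8 (2 and 20), Pramel47 (2 and 18) and Skint4 (2 and 18). Pramel47 and Skint4 belong to families of near-identical copies, so that their counts are uncertain. All genes named here were picked as the largest of 15157 ratios. They reached the minimum of 20 positions over both days mainly through day 2. Their intervals, which cover counting error only, thus excluded 1 nearly by choice. The surroundings of these genes also had more positions on day 2, with log2 ratios from 0.41 to 1.57.

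The genes with the largest decreases were mostly short. Dlk1, an imprinted membrane protein related to Notch ligands, had 18 positions on day 1 and 4 on day 2, a ratio of 0.222 with an exact 95% interval of 0.0547 to 0.675. The 500 kb on each side of it had 334 and 468 positions, so the gene went against its surroundings. Flg, which encodes filaggrin of the skin, had 53 and 17, a ratio of 0.321 (0.174 to 0.563), and its surroundings had 251 and 389. Gstm2, a glutathione S-transferase with close relatives beside it, had 21 and 6. Mmp21, a matrix metalloproteinase, had 20 and 6, and Pop4, a subunit of RNase P, had 17 and 5. The others were Lypd5 (17 and 5), Rtl6 (16 and 5), Arl11 (18 and 6), Crlf2 (15 and 5) and Gtpbp8 (15 and 5). These 10 were picked in the same way but reached the minimum of positions mainly through day 1, and their intervals support nothing further.

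Genes of the erythroid programme did not pass the size rule. Of 27 erythroid regulators tested, 24 had a log2 ratio below 0, beside 9958 of all 15157 genes. Their median was -0.30 beside -0.19 for all genes, and their surroundings had a median of -0.33. None was called, beside 5.82% called higher and 1.25% called lower among all genes, a background at which few calls would fall in a list of this length. Tal1 had 68 positions on day 1 and 40 on day 2, a ratio of 0.588 (exact 95% interval 0.388 to 0.882, as in the brackets after ratios below), while its surroundings had 577 and 726. Ikzf1, a zinc finger regulator of blood cells, had 298 and 218, a ratio of 0.732 (0.611 to 0.874). Klf1 had 15 and 13, and Lmo2, the bridging protein of the TAL1 complex, had 104 and 95. Epor had 19 and 23 and Kdm1a, a histone demethylase, had 70 and 76, the highest ratios in the list, with intervals that include 1. Kit had 188 and 169 (0.726 to 1.11). Most genes named in this list and in those below were picked for the largest ratios in each direction. Their intervals cover counting error only, and those that exclude 1 do so partly by this choice.

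The globin, heme and iron list had 19 tested members of 28, of which 17 were below 0, with a median of -0.32 and of -0.20 in their surroundings. None was called, beside the same 5.82% and 1.25% of all genes. Hmox1, which breaks down heme, had 27 positions on day 1 and 15 on day 2, and Cpox, a heme synthesis enzyme, had 29 and 17, both with intervals that include 1. Ireb2, an iron sensor, had 38 and 41, and Flvcr1, a heme exporter, had 43 and 45. The adult globin genes are too short for the rule. Hba-a1 had 2 and 4 positions, Hba-a2 2 and 1, Hbb-bs 2 and 2, and Hbb-bt 2 and 0. These numbers are too small to tell a difference.

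The red cell membrane list had 22 of 25 tested members below 0 and a median of -0.27. Ank1, the ankyrin of the membrane skeleton, had 357 positions on day 1 and 219 on day 2, a ratio of 0.613 (0.516 to 0.728), with a log2 ratio of -0.19 in its surroundings. Rhag, a Rh-associated channel protein, had 26 and 15. Genes for chromatin condensation and enucleation had 31 of 39 members below 0 and a median of -0.25. Among them Cit, a kinase of cell division, had 450 and 289, a ratio of 0.642 (0.552 to 0.746), and Ncaph2, a condensin subunit, had 70 and 45. Xpo7, a nuclear export factor of maturing erythroblasts, had 129 and 168, a ratio of 1.30 (1.03 to 1.65), with a log2 ratio of -0.16 in its surroundings. Suv39h2, a histone H3 methyltransferase, had 24 and 32. No member of either list was called, beside 5.82% and 1.25% of all genes, and 9958 of all 15157 genes lay below 0.

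Cell cycle genes had 33 of 40 members below 0 and a median of -0.27. Mcm7, of the replication helicase, had 38 positions on day 1 and 20 on day 2, a ratio of 0.526 (0.290 to 0.928), and Ccnb1, the mitotic cyclin B1, had 34 and 18. Cdkn2d, an inhibitor of G1 kinases, had 9 and 13, and Bub1, a spindle checkpoint kinase, had 21 and 26. Progenitor genes had 12 of 16 below 0 and a median of -0.23. Mecom, a stem cell regulator spread over a long locus, had 78 and 154, just short of the size rule at a ratio of 1.97 (1.49 to 2.63). Cd34 had 19 and 31, and Hhex had 20 and 13. Neither list had a called member, beside 5.82% and 1.25% of all genes, of which 9958 of 15157 lay below 0.

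Housekeeping families had medians below 0. Cytosolic ribosomal protein genes had a median of -0.28 over 55 tested, with 2 called lower, Rpl23a (15 and 7) and Rpl21 (16 and 8). Both have many processed copies in the genome, which makes their counts uncertain. Mitochondrial ribosomal protein genes had -0.21 over 61, with Mrpl19 (25 and 10) called lower, and Mrps28 (67 and 105) and Mrpl30 (12 and 18) with the highest ratios. Respiratory chain subunits had -0.20 over 69. In that list Cox7b2, a testis form of a cytochrome oxidase subunit in a gene-poor region, was called higher with 8 and 18, and Ndufs5 was called lower with 16 and 6. Of 67 histone genes 6 were tested, all below 0, with a median of -0.30, such as H2bc22 (54 and 37) and H1f8 (22 and 16). No list of these had more than 2 called members in a direction, beside 5.82% and 1.25% of all genes.

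Long neural adhesion and synapse genes stood at the other end. All 36 had more positions on day 2, 34 of 36 were called beside 5.82% of all genes, and the median log2 ratio was 1.69. Their number of positions together was 3023 on day 1 and 8841 on day 2. Cntn6, a contactin of neuronal adhesion, had 6 and 47, a ratio of 7.83 (3.34 to 22.4). Ctnna2, the neuronal alpha catenin, had 30 and 175, a ratio of 5.83 (3.94 to 8.90). Dscam (271 and 303) and Dpp6 (125 and 214) were the members not called. These genes are long, with a median of 1135 kb, and lie in gene-poor regions whose own log2 ratio had a median of 1.28. Genes of 500 kb or more had a median of 1.29 in all, and 140 of 216 of them were called higher, so most long genes of any kind were called.

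**Figure D5:**
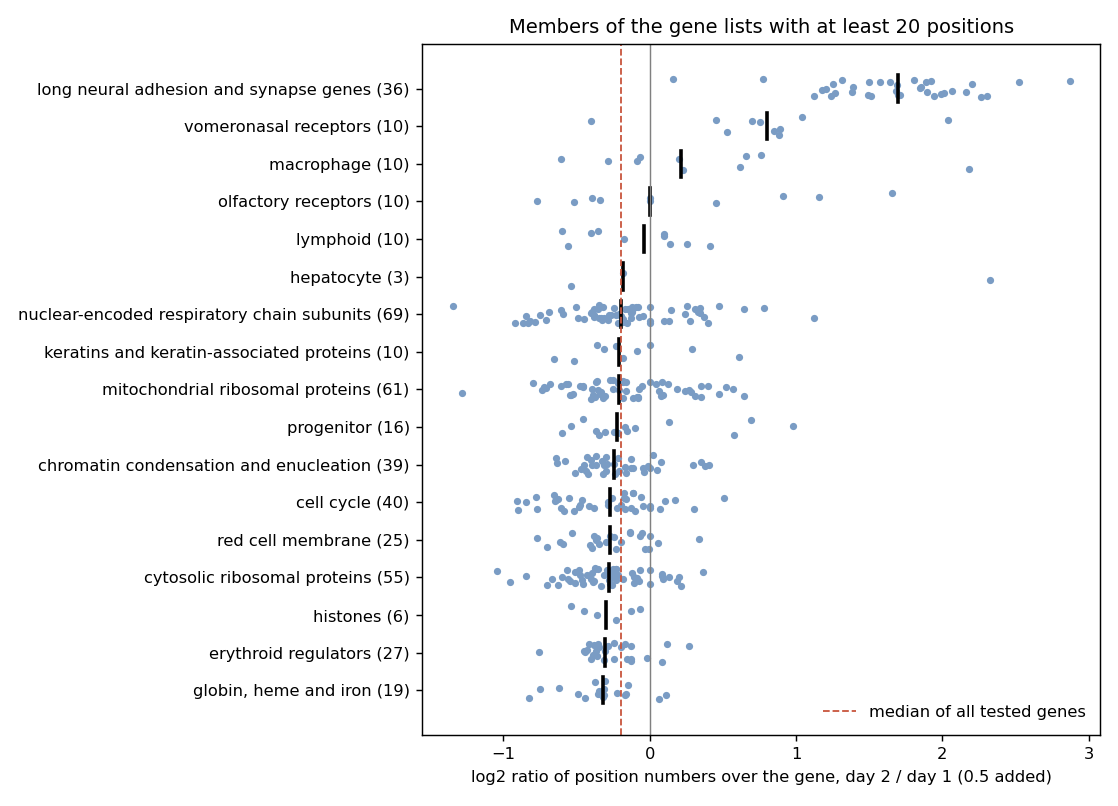
Log2 ratio of day 2 to day 1 position numbers for each tested member (points) of 17 gene lists, with list medians (black bars), tested members in brackets and the median of all tested genes as a dashed line at -0.19. Long neural adhesion and synapse genes have a median of 1.69, and the erythroid lists lie between -0.32 and -0.25.

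Marker genes of other cell types had medians on both sides of 0. Macrophage marker genes had a median of 0.21 over 10 tested, with a median of -0.11 in their surroundings. Of the 10, 1 was called higher, the scavenger receptor Marco (6 and 29), beside 5.82% of all genes. Timd4 had 11 and 19, Mpeg1 14 and 9, and the receptor Csf1r 89 and 73. Of 3 hepatocyte genes tested, the urea cycle enzyme Cps1 was called higher with 3 and 17, beside the same 5.82%, while the liver factor Hnf4a had 117 and 103. Marco and Cps1 reached the minimum of 20 positions mainly through day 2. Lymphoid genes had a median of -0.04 over 10 and of -0.32 in their surroundings, with Ebf1 at 140 and 186 and Cd3e at 20 and 24, and Cd79a at 23 and 15 and Rag1 at 12 and 8. Keratin genes had -0.21 over 10, with Krt90 at 9 and 14, Krt80 at 90 and 57 and Krt18 at 16 and 11.

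Sensory receptor genes are short and mostly fell below 20 positions. Vomeronasal receptors, the pheromone receptors, had 10 tested of 349, 9 of them above 0, with a median of 0.80. Of these, Vmn2r22 (4 and 18) and Vmn2r27 (9 and 19) were called higher, beside 5.82% of all genes. All 349 together had 295 positions on day 1 and 726 on day 2, and 252 had none on day 1 against 185 on day 2. Olfactory receptors had 10 tested of 1099 and a median of 0, with Olfr183 (6 and 20) and Olfr91 (6 and 14) called higher, beside the same 5.82%, and Olfr287 at 14 and 8. The called receptors reached the minimum of 20 positions mainly through day 2, and the tested members are too few to compare with that share. All 1099 had 869 and 952 positions. Both families have near-identical copies, and their counts are uncertain.

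In bins of 100 kb the changes were almost all in 1 direction by number. Of 21636 bins with at least 20 positions over both days, 7380 (34.1%) had more by 2 times on day 2 and 4 (0.0185%) had fewer. The totals are equal by construction, so the more numerous sparse bins with more positions were balanced by smaller relative decreases in dense bins. The median log2 ratio of bins was 0.50. The Spearman rho of the log2 ratio was -0.62 with gene number and -0.86 with the number of positions on both days together. The last of these contains the same position numbers on both sides and is a description only. The 3 bins with the largest increases had 0 positions on day 1. They were chr5:49800001-49900000 with 28 on day 2 and Adgra3 as the nearest gene, chr14:116400001-116500000 with 26, within Gpc5, a glypican, and chr18:19600001-19700000 with 25 and Dsc3 as the nearest gene. Against 0 positions no ratio is given, and their exact 95% lower limits were 7.10, 6.56 and 6.29. These bins were picked as the largest of 21636 ratios and reached 20 positions through day 2 alone. Their limits thus lay above 1 by choice and support nothing further.

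The 4 bins called lower were scattered. The first was chr5:51800001-51900000 within Ppargc1a, a coactivator of mitochondrial genes, with 19 positions on day 1 and 7 on day 2. Next were chr18:82200001-82300000, near Galr1, with 21 and 9, and chr5:114000001-114100000, with Dao and Svop, with 208 and 103. The last, chr3:93200001-93300000, held Flg2 and Flg and had 104 and 52.

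Neighbouring bins moved together. The log2 ratio of a bin correlated with that of the adjacent bin at 0.67, and with bins 0.5, 1 and 5 Mb away at 0.39, 0.23 and 0.065, as a description across bins. The 7380 bins formed 3113 runs, of which 48 were 1 Mb or longer and held 619 bins. The longest run, chr1:144600001-147100000 with the genes Rgs18 and Brinp3, spanned 2.5 Mb and had 243 positions on day 1 and 773 on day 2. Next came chr13:87500001-89800000, with the matrix protein genes Hapln1 and Vcan and with Edil3, with 257 and 750. A run over chr2:140600001-142800000, with Macrod2, Flrt3 and Kif16b, had 225 and 739. Among the top 1000000 positions of each list 2399 bins were called higher, and 615 of these were among the 7380.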

How the data were processed

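Nucleosome position lists from micrococcal nuclease sequencing of cultured mouse fetal liver erythroblasts were compared between day 1 and day 2, with 1 library per day. Bowtie2 and bedtools were used on mm10, per the submitters' processing notes. In the sources used here the position caller and the read totals are not given. Each summit value is a smoothed coverage signal, and each fuzziness score describes the spread of reads, both deposited by the authors. The p-value columns deposited by the authors were not used. Duplicate reads cannot be judged from the lists, so intervals cover counting error only.

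Positions on autosomes 1 to 19 were analysed with Python 3.11.15, numpy 2.4.6, pandas 2.3.3 and scipy 1.17.1. Equal-number sets were the top 2000000 positions by summit value, with ties broken at random by a fixed seed. Shares, distances (smoothed over 30 bp on each side), profiles and position numbers were computed as described in the report, and intervals for ratios of position numbers are exact conditional 95% intervals. Gene coordinates and start sequences came from RefSeq tables of GRCm38.p6. Of 20560 protein-coding autosome genes, 16457 had a start sequence, on 18 autosomes. A further 105 genes were left out because their coordinates lay on unplaced sequence or below 3 Mb. The calculations were checked on simulated data with known changes. The analysed libraries, bins, lists and tests were chosen with earlier results of these data known.

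Genes named are the 10 largest changes in each direction among those with at least 20 positions, leaving out predicted models and genes within 100 kb of one taken, and the 2 largest in each direction per list. For bins they are the 3 largest in each direction, with the fourth called lower added after its values were seen. The adult globin genes, Klf1, Tal1, Kit and Lmo2 are given whatever their values. Some genes that the rule for lists would name are not reported here. Each day has 1 library, so no test was run.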

Additional observations from a re-analysis of the deposited data

Results flagged for a closer look

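Positions were also listed outside the autosomes, in data that no comparison above used. Chromosome X had 30972 positions on day 1 and 88409 on day 2, which are 1.03% and 1.98% of each list. Chromosome Y had 975 and 3396, and the mitochondrial genome had 5 and 89. These are numbers in lists of unequal length and, if summit steps are units of coverage, unequal depth. The difference between days was not tested.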

How the results depend on the processing

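Of 43 alternative values for 12 results, 16 stayed within the main value's spread (1.5 times for counts), 27 moved further and 0 reversed. A number of called genes or bins cannot reverse, so the 0 was partly fixed in advance. The middle gene density class that changed side of 1 at summits of 10 or more was not among the 12 results. The spread was an SD over autosomes for fuzziness, spacing and the +1 maximum. It was narrower for gene density, where 0.733 in the richest bins counted as moved from 0.728, with an SD over autosomes of 0.0590. The ratio in the gene-poorest bins, 2.68, was 2.55 with each position counted once, 2.39 with the top 2000000, 2.91 with the top 1000000, 2.85 at summits of 10 or more and 2.02 with genes counted in 200 kb, and in the richest bins it stayed between 0.728 and 0.821. The ratio of shared to shifted positions, 1.45, was 1.56 within 10 bp, 1.29 within 50 bp, 1.59 for the top 1000000 and 1.34 for all positions. The fuzziness difference at shared positions was -2.40 for all positions. The difference in spacing, -1 bp, ran to -16.1 bp for the top 1000000, within the SD over autosomes, and the shift of the +1 maximum was -18 bp in both alternatives. Genes called higher, 882, were 490 with a minimum of 50 positions and 313 relative to the surrounding 500 kb, an alternative chosen after seeing the data. Genes called lower, 190, were 434 with the top 1000000, 494 by summed summit values, 357 with a minimum of 10 and 43 with a minimum of 50. Bins called higher, 7380, were 2399 with the top 1000000, and bins called lower, 4, were 18 there and 0 with all positions. Chromosome 11 had a ratio of 0.875 with the top 2000000. Chromosome 3 had 1.17 there and 1.21 by summed summit values. Where values moved, the cause was not tested. No paired analysis was possible because each day has 1 library, and for the same reason no library could be left out. The named genes with the largest changes rest on few positions on 1 of the days, and the part of depth in them was not tested.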
